A study of Homo sapiens with 10 samples.

Results

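PNRC1 and PNRC2 encode small proline-rich nuclear receptor coactivators, and PNRC2 also joins the machinery that removes the cap of mRNAs. The pair was chosen from their own nascent reads, total reads and labelled shares in these libraries. The 2 genes were selected out of 31015 genes with counts, and both passed the filter on low counts in nascent RNA, with 9946 genes tested, and in total RNA, with 14690 genes tested. Because these values chose the genes, their levels and changes are given as a description, with no test.

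The libraries came from 22RV1, a human cell line of castration-resistant prostate cancer. Cells were left as controls or received, over 4 h, either SRPIN340 at 20 μM, an inhibitor of the splicing kinase SRPK1, Endovion at 50 μM, a compound also called SCO-101 that the study set against SRPIN340, THZ531, an inhibitor of the transcription elongation kinase CDK12, or THZ531 and Endovion together. For THZ531 the series' design text gives 150 nM and the study's methods 100 nM. All cells, controls included, received 4-thiouridine for the last 10 min, and each of the 5 groups holds 2 libraries. In SLAM-seq, sequencing shows C where an alkylated 4-thiouridine stood for T, so a read with such a conversion (a T>C read) comes from RNA made during the label (nascent RNA), and all reads of a gene stand for total RNA. Cells without 4-thiouridine were not analysed here, so the T>C reads that arise without label were not measured.

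Both proteins bind the ligand-binding domain of nuclear receptors through a short proline-rich motif, and raise the activity of the receptors on their target genes. PNRC2 bridges the helicase UPF1 and the decapping factor DCP1A, and takes part in nonsense-mediated decay, in which mRNAs with a premature stop codon are destroyed, and in Staufen-mediated and glucocorticoid receptor-mediated decay. PNRC1 also binds the decapping complex, and can draw it into the nucleolus.

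The libraries held 19315560 to 30047897 reads and 1011598 to 1576121 T>C reads on genes, and 5.04% to 5.70% of the reads in a library were T>C reads. All 10 prostate epithelial markers examined, KLK3 and HOXB13 among them, had reads in each library, with a sum of 37431 to 71907. The 4 fibroblast markers summed to 47 to 89 reads, mostly COL1A1, the 3 leukocyte markers to 0 to 8 and the 3 endothelial markers to 0 to 1. The defining markers COL1A2, CD3E, VWF and CDH5 were at 0 in each library. Whether replicates came from separate cultures is not described, so p-values measure only the spread between these libraries, which may be technical.

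PNRC1 (ENSG00000146278.11) lies on the plus strand of chromosome 6 at 89080751-89085160 in hg38, a span of 4410 bases. The counted interval, the 3′ UTR part of its last exon at 89084197-89085160, holds 964 bases, of which 333 are T. PNRC2 (ENSG00000189266.13) lies on the plus strand of chromosome 1 at 23956839-23963462, a span of 6624 bases. Its counted interval at 23961878-23963462 holds 1585 bases, of which 535 are T. Both are short genes: the median span of the tested genes was 33456 bases, and 8.62% and 13.1% of them were shorter than PNRC1 and PNRC2, respectively. The measured transcripts have 2 and 3 exons. The pentamer ATTTA, the core of AU-rich elements that are known to shorten the life of mRNAs, occurred 0 times on the sense strand of the PNRC1 interval and 3 times in that of PNRC2 (1.89 per kb), against a median of 1.83 per kb over the tested genes.

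The 250 bases before the RefSeq start of each gene (GRCh38.p14, plus strand, 5′ to 3′) are shown for reference beside the nascent reads, at chr6:89080501-89080750 and chr1:23959578-23959827. Capitals mark matches on either strand to GCGTG, the core that the aryl hydrocarbon receptor binds with its partner, to CCAAT, the box of NF-Y (ATTGG where it lies on the other strand), and to GGGCGG, the box of SP factors.
PNRC1: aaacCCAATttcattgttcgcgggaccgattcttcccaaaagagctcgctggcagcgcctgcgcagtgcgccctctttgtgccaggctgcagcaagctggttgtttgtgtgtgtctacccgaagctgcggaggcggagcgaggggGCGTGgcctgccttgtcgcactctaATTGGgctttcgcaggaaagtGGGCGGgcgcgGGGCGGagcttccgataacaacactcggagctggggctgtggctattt
PNRC2: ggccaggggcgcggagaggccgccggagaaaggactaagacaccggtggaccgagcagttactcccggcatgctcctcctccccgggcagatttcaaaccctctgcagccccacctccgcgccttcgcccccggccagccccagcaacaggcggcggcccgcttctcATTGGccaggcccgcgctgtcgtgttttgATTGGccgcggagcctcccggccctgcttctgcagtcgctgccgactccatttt
The PNRC1 sequence held 1 GCGTG at 105 bases before the start, 2 CCAAT at 246 and 80 bases and 2 GGGCGG at 59 and 48 bases, none of which overlap. The PNRC2 sequence held 2 CCAAT at 83 and 54 bases and neither of the other motifs. The RefSeq start of PNRC2 lies inside the gene span that GENCODE gives. No match to the E-box CACGTG or to the cyclic AMP element TGACGTCA was found in either. Of the 35116 RefSeq promoter sequences of this length, 32.2% held GCGTG, 32.0% held CCAAT (9.53% at least 2 of them), 42.6% held GGGCGG (24.3% at least 2), 6.34% held CACGTG and 1.65% held TGACGTCA. G and C made up 60.8% of the PNRC1 and 68.4% of the PNRC2 sequence, against a median of 58% over all promoters. A match is a description of the letters and not of binding.

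PNRC1 had more nascent reads in each treatment than in control. The 2 control libraries held 61 and 26 T>C reads, which is 39.3 and 20.9 CPM of T>C reads after TMM scaling to library size (the scaled level used below). SRPIN340 libraries held 128 and 136 T>C reads, with scaled levels of 86.6 and 85.1. Endovion libraries held 178 and 150, with scaled levels of 137 and 144. Each of these 4 treated libraries lay above both controls, and the Endovion libraries lay above those with SRPIN340. THZ531 libraries held 181 and 143 T>C reads, with scaled levels of 118 and 145. The libraries with both compounds held 272 and 212, with scaled levels of 230 and 208. The order of the nascent levels was therefore control, SRPIN340, THZ531 and Endovion, and the combination, and only THZ531 and Endovion, whose ranges overlapped, were neighbours not separated beyond their spread. Since these are bulk libraries, more RNA per cell and more cells with the RNA, or fewer and less where a level is lower, cannot be told apart.

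The nascent level of PNRC1 was 30.1 ± 13.01 in control, 85.9 ± 1.03 with SRPIN340, 140 ± 5.45 with Endovion, 132 ± 19.5 with THZ531 and 219 ± 15.5 with the combination (mean ± SD, n = 2 each). The controls themselves differed 1.88-fold, more than the replicates of any other group. The fitted log2 fold changes against control were 1.49 (SE 0.26) with SRPIN340, 2.19 (SE 0.26) with Endovion, 2.09 (SE 0.26) with THZ531 and 2.84 (SE 0.25) with both, that is 2.80-, 4.58-, 4.27- and 7.16-fold. The medians over all tested genes were -0.01, -0.01, -0.02 and -0.01, and PNRC1 ranked at place 282, 148, 165 and 74 from the highest of 9946 genes. Leaving out control replicate 1 gave 2.05, 2.75, 2.66 and 3.40, and leaving out control replicate 2 gave 1.13, 1.84, 1.73 and 2.48 on the log2 scale, so each change kept its direction but its size depended on which control library was used.

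**Figure D1:**
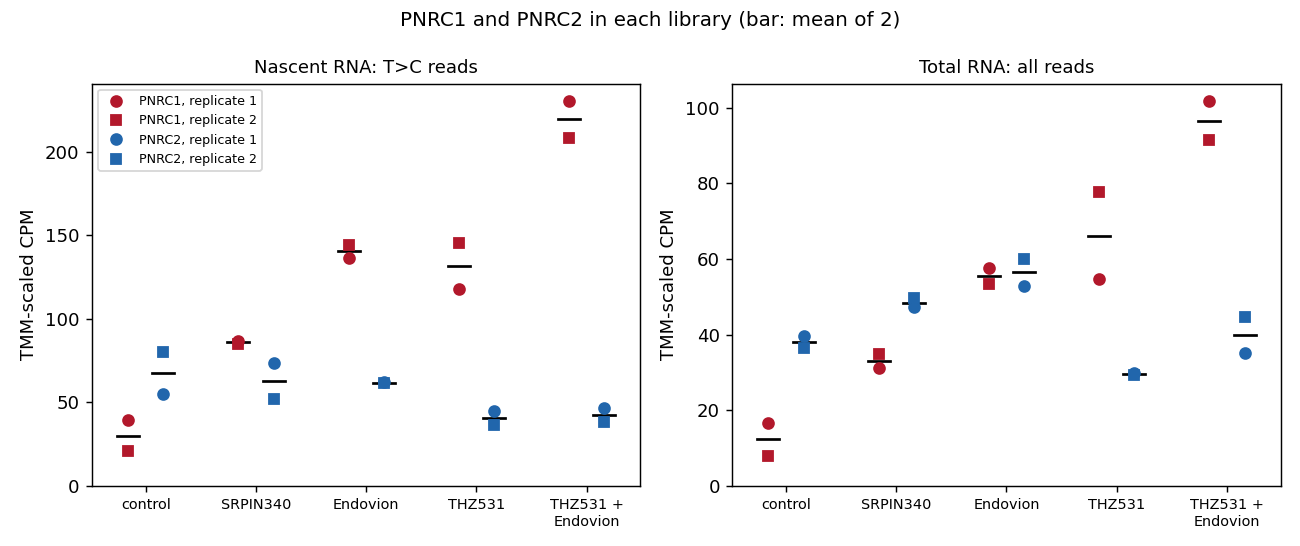
Levels of PNRC1 (red) and PNRC2 (blue) in each of the 10 libraries, as TMM-scaled CPM, for T>C reads (left) and all reads (right); circles are replicate 1, squares replicate 2, and a bar marks the mean of both. In nascent RNA PNRC1 lies at 20.9 and 39.3 in control and at 208 and 230 with THZ531 and Endovion, and PNRC2 lies between 36.6 and 46.6 in the libraries with THZ531.

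As background to these values, the share of all tested genes with both treated libraries above both controls in nascent RNA was 20.9% with SRPIN340, 22% with Endovion, 24% with THZ531 and 24% with the combination, and the share with both below was 20.5%, 21.6%, 24.6% and 24.8%, respectively. PNRC1 was above in all 4 treatments. PNRC2 was below with THZ531 and with the combination and overlapped the controls with SRPIN340 and Endovion. Nothing is read from these counts, since the nascent values chose the genes.

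Within the treatments, adding Endovion to THZ531 went with a further 0.75 (SE 0.22) log2 in nascent PNRC1, and adding THZ531 to Endovion with a further 0.65 (SE 0.22). The change with both compounds was smaller on the log2 scale than the sum of the changes with each alone, by -1.45 (SE 0.34). This last value rests on the control libraries, which both single changes share with the combined one, and the first pair compare treated libraries with each other.

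Total PNRC1 followed the same order of groups. The control libraries held 466 and 189 reads (scaled levels of 16.6 and 7.95 CPM), and the SRPIN340 libraries 835 and 1095 (31.2 and 34.8). Endovion libraries held 1505 and 1079 reads (57.6 and 53.4), and THZ531 libraries 1484 and 1447 (54.7 and 77.6). The combination libraries held 2318 and 1746 reads (102 and 91.3). Each treated library was above both controls, the Endovion and THZ531 ranges overlapped, and the combination was highest. The share of all genes with such a separation was counted in nascent RNA only, so nothing is read from it here. Log2 fold changes of total RNA were 1.42 (SE 0.31), 2.17 (SE 0.31), 2.42 (SE 0.31) and 2.97 (SE 0.32) with SRPIN340, Endovion, THZ531 and the combination. Control replicates differed 2.09-fold, and without control replicate 1 the changes were 2.06, 2.80, 3.06 and 3.60, whereas without control replicate 2 they were 0.95, 1.69, 1.95 and 2.49.

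PNRC2 had its lowest nascent levels in the libraries with THZ531. The control libraries held 85 and 100 T>C reads, with scaled levels of 54.7 and 80.2. SRPIN340 libraries held 109 and 83, with scaled levels of 73.7 and 52.0, and Endovion libraries 81 and 64, with scaled levels of 62.2 and 61.6. These groups overlapped. THZ531 libraries held 69 and 36 T>C reads, with scaled levels of 44.9 and 36.6. The combination libraries held 55 and 39, with scaled levels of 46.6 and 38.4. These 4 libraries overlapped with each other and lay below the others. The log2 fold changes were -0.10 (SE 0.30), -0.12 (SE 0.30), -0.71 (SE 0.31) and -0.66 (SE 0.31) with SRPIN340, Endovion, THZ531 and the combination, and adding Endovion to THZ531 changed it by 0.05 (SE 0.33). The first pair were smaller than their standard errors. Leaving out a single library gave -0.95 to -0.41 with THZ531 and -0.90 to -0.36 with the combination. In each library, part of the PNRC2 conversions lay in the last bases of the counted interval, past a shorter annotated interval that ends at 23963446. In control replicate 2, the library with the highest level, the shorter interval held 33 of the 117 conversions. It held 54 of 95 in control replicate 1, and 41 of 74 and 20 of 39 with THZ531. Whether the conversions at the end come from the label was not tested.

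Total PNRC2 behaved differently from its nascent level. The control libraries held 1109 and 863 reads, with scaled levels of 39.5 and 36.3 CPM. THZ531 libraries held 810 and 548 reads (29.9 and 29.4), the lowest, and combination libraries 799 and 851 (35.0 and 44.5), on both sides of the controls. SRPIN340 libraries held 1261 and 1566 reads (47.2 and 49.7), and Endovion libraries 1382 and 1213 (52.9 and 60.0), the highest. Only control and the combination overlapped among neighbours in this order. Separation over all genes was not counted in total RNA, so nothing is read from this order. The log2 fold changes of total RNA were 0.35 (SE 0.14) with SRPIN340, 0.57 (SE 0.14) with Endovion, -0.36 (SE 0.14) with THZ531 and 0.07 (SE 0.14) with both. Adding Endovion to THZ531 went with a further 0.42 (SE 0.14).

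**Figure D2:**
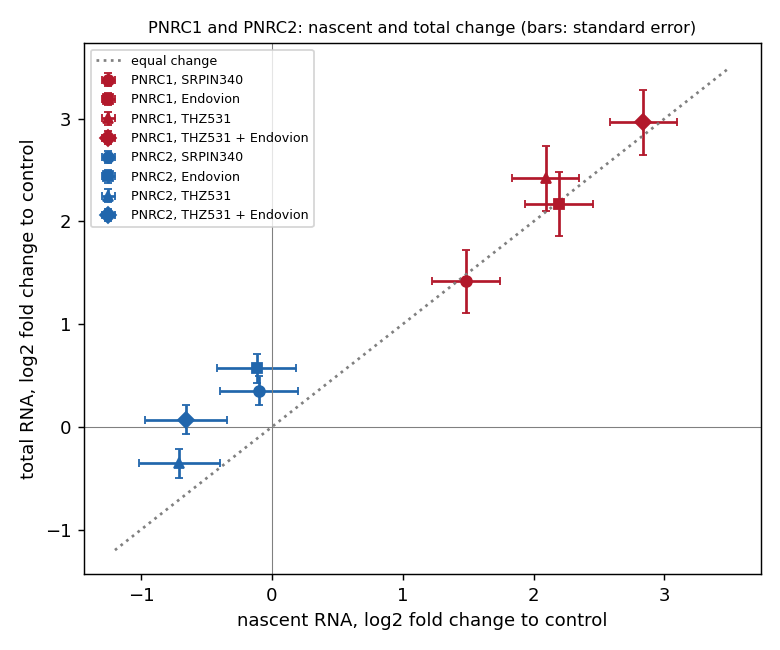
Log2 fold change against control in nascent RNA (horizontal) and in total RNA (vertical) for PNRC1 (red) and PNRC2 (blue); marker shapes give the treatment, bars the standard error of the fit, and the dotted line equal change. The PNRC1 points lie along the line from 1.49 to 2.84, and the PNRC2 points lie above it, at -0.71 to -0.10 in nascent RNA and -0.36 to 0.57 in total RNA.

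The labelled share of PNRC1 reads (T>C reads over all reads) lay below both controls in the libraries with THZ531, alone or with Endovion, by less than the width of the counting intervals of the controls. It was 13.1% (95% Wilson interval 10.3 to 16.5) and 13.8% (9.56 to 19.4) in the controls and 11.7% (10.5 to 13.1) and 12.1% (10.7 to 13.8) with the combination. THZ531 libraries had 12.2% (10.6 to 13.96) and 9.88% (8.45 to 11.5). SRPIN340 libraries had 15.3% and 12.4% and Endovion libraries 11.8% and 13.9%, and each pair overlapped the controls. Whether counts were reduced by molecular identifiers is not stated, so the intervals cover counting error only. Pooled over the controls, the share was 13.3%, above that of 90.9% of the tested genes (median 5.19%). With THZ531 it was 11.1%, above 90.0% of the genes (median 4.96%), and with the combination 11.9%, above 92.8% (median 4.74%). The median over genes was thus lower in these groups too. How many genes lay below both controls in labelled share was not counted, so nothing is read from the separation.

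PNRC2 had a lower labelled share in treated than in control libraries with Endovion and with the combination. The control libraries had 7.66% (6.24 to 9.38) and 11.6% (9.62 to 13.9). Endovion libraries had 5.86% (4.74 to 7.23) and 5.28% (4.15 to 6.68), and those with the combination 6.88% (5.33 to 8.85) and 4.58% (3.37 to 6.20). These 4 libraries lay below both controls. SRPIN340 libraries had 8.64% and 5.30% and THZ531 libraries 8.52% and 6.57%, and each pair overlapped the controls. The pooled control share was 9.38%, above that of 80.6% of the tested genes. It was 5.59% with Endovion, above 64.2% of the genes, and 5.70% with the combination, above 63.9%. The median over tested genes was itself 5.19% in control, 4.60% with Endovion and 4.74% with the combination. Genes separated from both controls in this way were not counted, so nothing is read from the separation. The conversions in the last bases of the counted interval also enter these shares. In control, 54 of 95 and 33 of 117 conversions lay in the shorter interval that ends at 23963446. With Endovion these were 50 of 95 and 56 of 83, and with the combination 40 of 58 and 20 of 39. The part of the last bases in the shares was not tested.

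**Figure D3:**
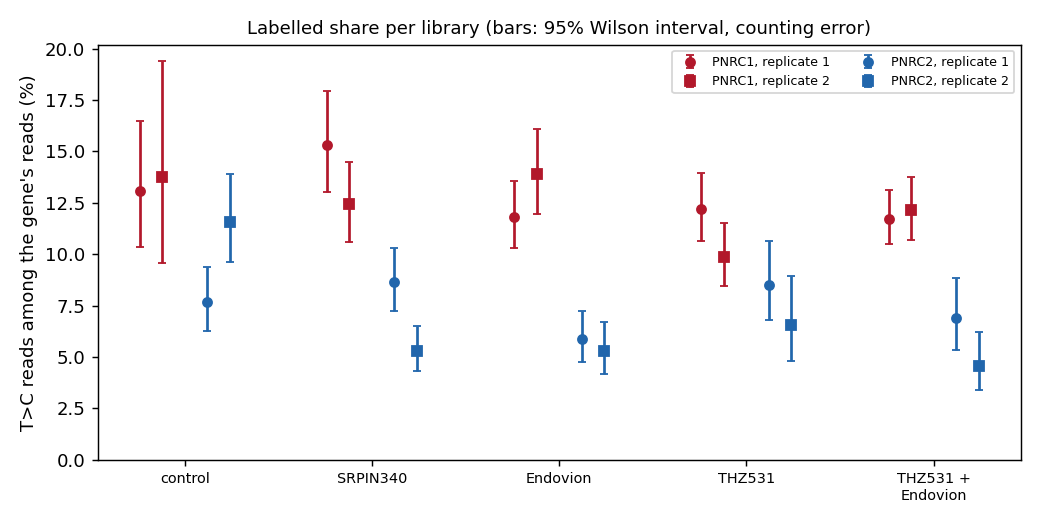
Share of T>C reads among all reads of PNRC1 (red) and PNRC2 (blue) in each library, with bars for the 95% Wilson interval; circles are replicate 1 and squares replicate 2. The PNRC1 shares lie between 9.88% and 15.3% in all groups, and the PNRC2 shares lie at 7.66% and 11.6% in control and at 4.58% to 6.88% in the libraries with Endovion, alone or with THZ531.

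The number of conversions per T>C read of PNRC1 was higher in both controls than in the treated libraries, though only just in control replicate 2. The controls had 87 conversions in 61 T>C reads (1.43 per read) and 32 in 26 (1.23), and the treated libraries had 1.03 to 1.22. Measured as conversions over covered T positions, the label of PNRC1 relative to control was therefore lower in each treatment than by T>C reads. The log2 ratios to control by that measure were -0.20 with SRPIN340, -0.40 with Endovion, -0.62 with THZ531 and -0.58 with the combination. PNRC2 had 1.12 and 1.17 conversions per T>C read in control and 1 to 1.30 in the treated libraries. The part of conversions per read in the shares was not tested. How many genes were separated in this way was not counted, so nothing is read from the separation of PNRC1.

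Pearson r of the log2 nascent levels of the 2 genes was -0.64 over 10 libraries, as a description over libraries of 5 groups. The nascent values chose the pair, and r over other pairs of genes was not set beside it, so nothing is read from it. With SRPIN340 and Endovion, nascent PNRC2 overlapped the controls. The genes most like PNRC1 among 4093 genes with a mean of at least 50 T>C reads were GABARAPL2 (r = 0.984), of the autophagy ATG8 family, SDCBP (0.971), the scaffold syntenin, NFATC3 (0.970), a calcineurin-dependent transcription factor, BOLA3 (0.967), needed for mitochondrial iron-sulfur clusters, and SLC25A5 (0.965), a mitochondrial ADP/ATP carrier. Their log2 fold changes with the combination were 1.20, 2.79, 0.96, 1.75 and 1.36, against 2.84 for PNRC1. The genes most like PNRC2 were PGRMC2 (0.956), AGPAT3 (0.939), DCAF7 (0.935), HDDC3 (0.935) and ITPRIPL2 (0.931), with log2 fold changes with THZ531 of -0.61, -1.22, -0.46, -0.52 and -1.21, against -0.71 for PNRC2. PGRMC2 is a membrane-bound haem-binding protein and AGPAT3 a lipid acyltransferase.

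None of the neighbours on the chromosomes that could be tested in nascent RNA, RNGTT and SRSF10, passed that test in any treatment. RNGTT, the mRNA capping enzyme, lies 117132 bases below PNRC1 on the minus strand, with 35 and 55 T>C reads in control and 24 to 55 in the treated libraries. In total RNA it rose with Endovion (log2 0.43, adjusted p = 0.0392), THZ531 (0.35, 0.0442) and the combination (0.49, 0.00877) in edgeR's quasi-likelihood fit, after Benjamini-Hochberg adjustment. SRSF12, an SR splicing factor gene 10798 bases above PNRC1 on the minus strand, had 2 to 19 T>C reads, did not pass the nascent filter, and passed no test in total RNA. SRSF10, another SR splicing factor gene, lies 884 bases above PNRC2 on the minus strand, with its last exon facing that of PNRC2. It had 201 and 257 T>C reads in control and 132 to 223 in treated libraries, and passed no test in nascent or total RNA. CNR2, a cannabinoid receptor gene 43476 bases below PNRC2, was at 0 reads in each library. The counted intervals of PNRC1 and PNRC2 overlapped those of no other gene.

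The other genes of the pathways, 118 in 5 lists with 84 tested in nascent RNA, mostly did not pass the test. With SRPIN340, 1 rose and 0 fell, where 0.845% of all tested genes rose and 0.191% fell. With Endovion, 3 rose and 1 fell, where 2.04% rose and 0.623% fell. With THZ531, 2 rose and 7 fell, where 3.86% rose and 3.6% fell. With the combination, 5 rose and 9 fell, where 4.61% rose and 3.49% fell. The median log2 fold changes of the 84 genes were -0.02, 0.04, 0.04 and 0.02. In total RNA, 100 list genes were tested, of which 3 rose and 0 fell with SRPIN340, 14 rose and 3 fell with Endovion, 18 rose and 12 fell with THZ531, and 20 rose and 13 fell with the combination. The shares of all tested genes in total RNA were 1.82% and 0.143%, 8.9% and 2.53%, 16.6% and 14.1%, and 16.6% and 12.4%, in the same order.

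Among the 23 decapping genes, PATL1, the scaffold that links deadenylation with decapping, rose in all 4 treatments. The control libraries held 80 and 66 T>C reads, those with SRPIN340 167 and 207, with Endovion 163 and 105, with THZ531 194 and 119, and with the combination 138 and 113. The log2 fold changes were 1.22, 1.12, 1.24 and 1.13, with adjusted p of 0.00145, 0.00248, 0.000333 and 0.00123 in the quasi-likelihood test of edgeR (Benjamini-Hochberg adjusted). With THZ531 and with the combination the call held in all 17 alternatives. With SRPIN340 it was lost with the plain sum of intervals, without control replicate 2 and without SRPIN340 replicate 2, and with Endovion with the plain sum and without Endovion replicate 1, with edgeR adjusted p of up to 0.136 and 0.133. Total PATL1 had 1106 and 477 reads in control, and passed with Endovion, THZ531 and the combination (log2 1.46, 1.63 and 1.70, adjusted p = 0.0147, 0.00313 and 0.00276 by the same edgeR test).

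DCP1A, the decapping activator that PNRC2 binds, rose in nascent RNA with Endovion (84 and 32 T>C reads in control, 109 and 105 with Endovion, log2 1.19, edgeR adjusted p = 0.0215). That call was lost with DESeq2, with the plain sum and without control replicate 2 or either Endovion library, with an adjusted p of up to 0.429. In total RNA DCP1A rose in each treatment, by log2 0.77, 1.12, 0.64 and 1.07 with SRPIN340, Endovion, THZ531 and the combination (edgeR adjusted p = 0.0430, 0.00293, 0.0152 and 0.000760). EIF4ENIF1, which carries the cap-binding protein eIF4E into the nucleus and represses translation, fell: it had 21 and 20 T>C reads in control, 0 and 3 with THZ531 and 0 and 2 with the combination (edgeR adjusted p = 0.0176 and 0.0108). These calls were lost with the plain sum, without control replicate 2 and without replicate 1 of the treatment, and that with THZ531 also with the fit of 2 groups, with adjusted p of up to 0.241 and 0.205. Its total reads, 385 and 298 in control, were 145 and 77 with THZ531 and 122 and 89 with the combination (log2 -1.46 and -1.39, edgeR adjusted p = 0.000103 and 0.000182). DCP2, the catalytic subunit of decapping, had log2 nascent changes of -0.03, -0.45, 0.86 and 0.12 and passed no test in either RNA. LSM14A, singled out after its values were seen, counted as a rise in total RNA on 0 and 1 reads in control.

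Of the 13 genes of nonsense- and Staufen-mediated decay, 12 were tested in nascent RNA and 0 rose in any treatment by the edgeR test. Over all tested genes 0.845% to 4.61% rose, so with 12 genes nothing is read from the absence of rises. SMG8, a subunit of the SMG1 kinase complex that phosphorylates UPF1, fell from 81 and 52 T>C reads in control to 22 and 19 with THZ531 and 21 and 14 with the combination (log2 -1.50 and -1.56, edgeR adjusted p = 0.00833 and 0.00651). UPF1, the helicase that PNRC2 binds, fell with the combination (241 and 339 T>C reads to 164 and 130, log2 -0.67, edgeR adjusted p = 0.0360), a call lost with the plain sum, DESeq2 and the fit of 2 groups, without control replicate 2 and without either combination library. SMG9, the partner of SMG8, had 18 and 16 T>C reads in control and 0 and 2 with the combination (edgeR adjusted p = 0.0346). STAU1 passed no test. The calls of SMG8 were lost without control replicate 1, THZ531 replicate 1 or combination replicate 2. That of SMG9 was lost without either control library or combination replicate 1, with the plain sum and with the fit of 2 groups.

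Of the 11 deadenylation genes tested, CNOT8, a catalytic subunit of the CCR4-NOT complex, rose with Endovion (log2 1.08, edgeR adjusted p = 0.0438) and with the combination (1.12, 0.0164), from 62 and 32 T>C reads in control to 81 and 82 and to 67 and 89. Its paralogue CNOT7 and the subunits CNOT2 and CNOT11 fell with the combination by log2 0.57, 0.66 and 0.65 (edgeR adjusted p = 0.0143, 0.0202 and 0.0251). These calls, CNOT8 included, were lost without control replicate 2 and without at least 1 treated library, and each with the plain sum. CNOT8 with Endovion was also lost with DESeq2, scaling by all reads and the fit of 2 groups.

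Of 22 nuclear receptor genes tested in nascent RNA, PPARA, a receptor for fatty acids, fell with THZ531 (47 and 57 T>C reads in control, 13 and 13 with THZ531, log2 -1.83, edgeR adjusted p = 0.00492), as did HNF4G (-1.46, 0.0197). NR2F1, an orphan receptor, fell with Endovion (log2 -0.67, 0.0333) and with the combination (-0.68, 0.0152), and NR1D2, a circadian repressor, rose with the combination (1.14, 0.0230), all by the edgeR test. NR3C1, the glucocorticoid receptor, through which PNRC2 is recruited in one decay route, passed no nascent test, and its total RNA rose with SRPIN340, THZ531 and the combination (log2 0.56, 0.62 and 0.60, edgeR adjusted p = 0.0412, 0.00257 and 0.00315). The nascent calls of PPARA, HNF4G, NR2F1 and NR1D2 were lost without control replicate 2, and each also without at least 1 treated library and with the plain sum, NR2F1 with Endovion in addition with DESeq2, with edgeR adjusted p of up to 0.114 for PPARA and 0.540 for NR2F1.

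Of 19 receptor coregulators tested, NCOA6, a coactivator, fell with THZ531 (156 and 170 T>C reads in control, 97 and 28 with THZ531, log2 -1.32, edgeR adjusted p = 0.000929) and with the combination (64 and 70, log2 -0.94, 0.0202). NCOA4, a coactivator that also carries ferritin to autophagosomes, rose with THZ531 (log2 0.78, 0.0301) and the combination (0.79, 0.0271), and NRIP1, a corepressor, rose with the combination from 16 and 22 T>C reads to 50 and 56 (log2 1.81, 0.00318), all by the edgeR test. NCOA6 with THZ531 was lost without THZ531 replicate 2, NCOA4 in both treatments and NCOA6 with the combination without control replicate 2, and NRIP1 without control replicate 1. Each was also lost without at least 1 treated library. NCOA4 and NCOA6 were lost with the plain sum in both treatments, NCOA4 with DESeq2 in both and with the fit of 2 groups with THZ531. In nascent RNA with the combination, no list gene that rose reached the 2.84 of PNRC1. Since PNRC1 was chosen from its nascent values, nothing is read from this.

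**Figure D4:**
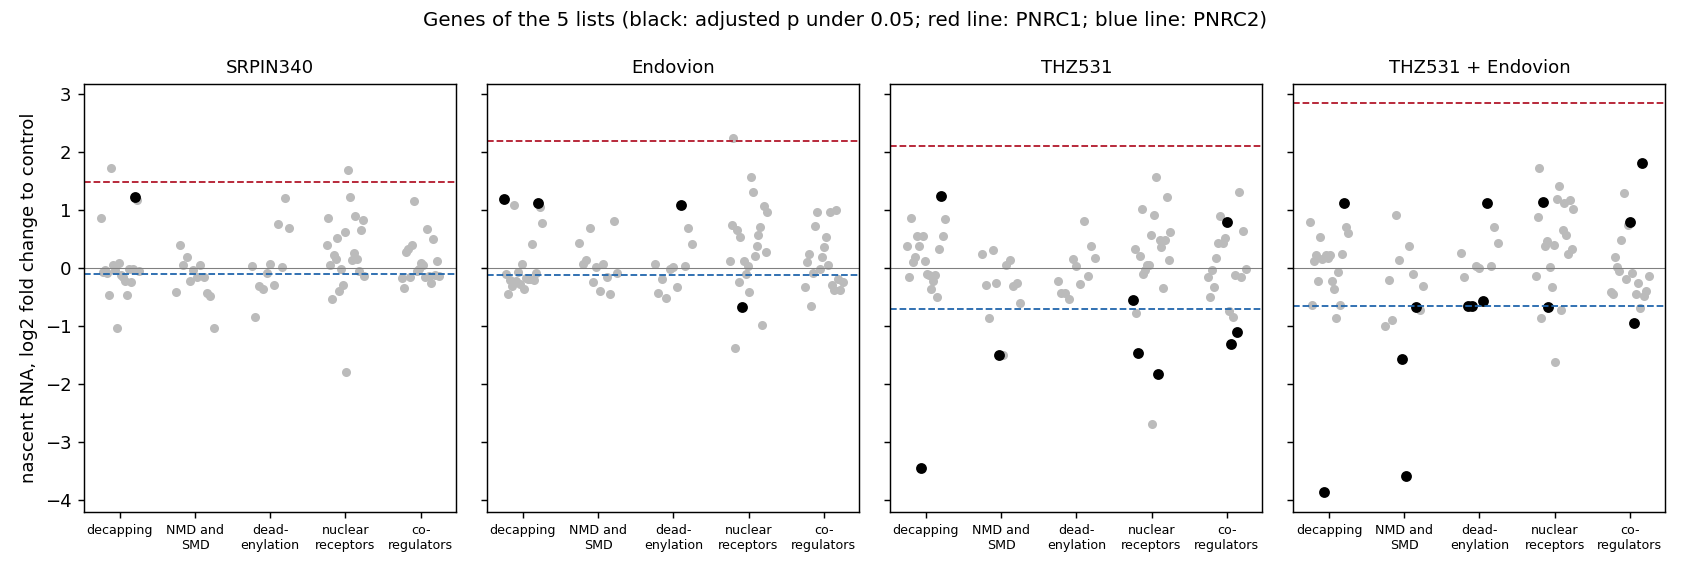
Nascent log2 fold change against control of the list genes tested, one panel for each treatment and one column for each list (NMD and SMD are nonsense- and Staufen-mediated decay); black points have an adjusted p under 0.05 in edgeR's quasi-likelihood test, and dashed lines mark PNRC1 (red) and PNRC2 (blue). Most points are grey, and PNRC1 lies at 2.84 with the combination, where the highest black point is NRIP1 at 1.81. PNRC1 was chosen from its nascent values, so its place above the list genes follows in part from the choice.

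Over all lists, the nascent test made 28 calls, of which 26 were lost in at least 1 alternative and 2, both of PATL1, in none, and no call changed its sign. Control replicate 2, the library with fewer PNRC1 reads, had more calls depend on it than control replicate 1: 21 were lost without the former and 9 without the latter. With the plain sum of intervals 22 of the calls were lost, and with DESeq2 6. Scaled nascent levels of PNRC1, DCP1A, CNOT8 and NCOA4 were lower in control replicate 2 than in control replicate 1. Its part in the changes was not tested.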

How the data were processed

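From alkylated RNA the authors made QuantSeq 3′ end libraries, and called conversions with SLAM-DUNK (version and conversion threshold not given in the sources used here). The values used are counts per 3′ UTR interval, deposited by the authors with no normalization (all reads, T>C reads, T positions covered and conversions among them), on hg38. Bowtie2 2.3.4.1, SAMtools 1.6 and DESeq2 1.38.2 are named in the submitters' processing notes.

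Of 104653 intervals, those matched to GENCODE 44 transcripts were used, which left out 3.53% of T>C reads. Where intervals of 1 gene overlapped, only that with the highest read count stayed, and 57437 intervals were summed to 31015 genes. T>C reads and all reads were fitted over all 10 libraries with edgeR 4.0.16 in R 4.3.3 (TMM, filterByExpr, robust quasi-likelihood, 5 residual degrees of freedom). Calls have a Benjamini-Hochberg adjusted p under 0.05. The script was checked on simulated counts. Named are the 2 genes, their neighbours, up to 3 called genes per list and treatment with the smallest p in nascent RNA, and the 5 genes most like each over libraries. The members and lists were chosen with earlier results of these data known. Alternatives were plain sums, the top interval, DESeq2 1.42.0, no filter, scaling by all reads, fits of 2 groups, the replicate block, the methods' threshold and leaving out each library. The combination of THZ531 with SRPIN340 was not analysed here. Some called list genes are counted but not reported by name here.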

Additional observations from a re-analysis of the deposited data

How the results depend on the processing

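The log2 fold changes of PNRC1 and PNRC2 moved by less than the spread between replicates in each alternative that kept all libraries. Leaving out a library gave 1.13 to 2.05, 1.84 to 2.75, 1.73 to 2.66 and 2.48 to 3.40 for nascent PNRC1 with SRPIN340, Endovion, THZ531 and the combination, and 0.95 to 2.06, 1.69 to 2.80, 1.95 to 3.06 and 2.49 to 3.60 for total PNRC1. For PNRC2 it gave -0.37 to 0.20, -0.37 to 0.18, -0.95 to -0.41 and -0.90 to -0.36 in nascent RNA, and 0.25 to 0.42, 0.47 to 0.66, -0.46 to -0.29 and -0.11 to 0.17 in total RNA. Counts of list genes that rose were 0 to 2, 0 to 3, 1 to 3 and 2 to 6, and of those that fell 0 to 1, 0 to 1, 2 to 7 and 1 to 9. With the plain sum of intervals, list genes that rose numbered 0, 0, 1 and 2, and those that fell with Endovion, THZ531 and the combination 0, 2 and 1. DESeq2 gave 1 that rose and 0 that fell with Endovion and 1 that rose with THZ531. Scaling by all reads gave 2 that fell with Endovion, and the fit of THZ531 and control alone 1 that rose. At the methods' threshold 3 rose with SRPIN340, 4 rose with THZ531 and 3 fell with the combination. The cause was not tested. By conversions over covered T positions, the log2 ratio of the PNRC1 label to control was -0.20, -0.40, -0.62 and -0.58.

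The replicate numbers did not pair the libraries: the correlation of the differences between replicates 1 and 2 ran from -0.07 to 0.06 between groups. With the replicate block, nascent PNRC1 changed by 1.49, 2.20, 2.10 and 2.85 and PNRC2 by -0.11, -0.13, -0.72 and -0.67, total PNRC1 by 1.44, 2.18, 2.44 and 2.98 and PNRC2 by 0.35, 0.57, -0.36 and 0.06, and 2 list genes fell with Endovion. The block changed no other count by over 1.5 times. With 2 libraries a group and 26 to 272 T>C reads for PNRC1, small changes are not detectable at this depth.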
